A study of Mus musculus with 6 samples.

Results

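Homeobox genes encode transcription factors that bind DNA through a homeodomain. Of the 1722 genes that the authors' deposited table lists as changed between FOXP1-overexpressing and wild-type U14 cells, 9 are described here. They are the Hox genes Hoxc6, Hoxc8, Hoxd9 and Hoxd10, which rose, and the non-Hox homeobox genes Dlx1, Isl2, Lhx3, Msx3 and Rhox2h, which fell. They were selected by name from the genes past the authors' limits of a q under 0.05 and a fold of at least 2, so the same contrast chose them and their differences are a description, with no test. U14 is a mouse cervical carcinoma cell line. The tested cells are labelled as overexpressing FOXP1, a forkhead transcription factor, and their libraries are numbered 2, 3 and 4. The other group is wild-type U14, with libraries 1, 2 and 3. The labels give no vector, promoter, clone or treatment, and Foxp1 mRNA was not analysed here, so the overexpression rests on the labels.

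Hox genes lie in clusters and give cells their position along the head-to-tail axis of the embryo and along the limb. They often stay active in connective tissue of the adult according to its site in the body. The other homeobox families act in particular tissues. Among them, LIM homeobox genes and Dlx and Msx genes specify kinds of neurons, and the Rhox genes of the X chromosome are used in reproductive tissue. In the embryonic spinal cord, Foxp1 acts as an accessory factor of Hox proteins in motor neurons, which are also the cells in which Isl2 and Lhx3 are best known.

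The windows of 250 bases upstream of the transcript start (RefSeq, GRCm38.p6) are shown for 3 genes because they put neighbouring Hox genes that rose beside a fallen gene with a different base make-up. CG dinucleotides are in capitals. The Hoxd10 window is chr2:74691641-74691890 on the plus strand, the Hoxd9 window is chr2:74697513-74697762 on the plus strand, and the Rhox2h window is chrX:37673278-37673527 on the minus strand.
Hoxd10: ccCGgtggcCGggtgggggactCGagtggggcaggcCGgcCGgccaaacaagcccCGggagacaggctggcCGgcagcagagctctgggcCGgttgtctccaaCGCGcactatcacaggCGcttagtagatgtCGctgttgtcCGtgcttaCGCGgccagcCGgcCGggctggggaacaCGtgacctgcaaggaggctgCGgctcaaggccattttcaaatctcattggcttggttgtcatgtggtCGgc
Hoxd9: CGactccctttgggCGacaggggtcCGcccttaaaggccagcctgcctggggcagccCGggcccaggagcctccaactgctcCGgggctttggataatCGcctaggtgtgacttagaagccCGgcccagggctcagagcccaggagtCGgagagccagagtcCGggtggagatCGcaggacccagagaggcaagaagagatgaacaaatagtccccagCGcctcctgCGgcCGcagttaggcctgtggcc
Rhox2h: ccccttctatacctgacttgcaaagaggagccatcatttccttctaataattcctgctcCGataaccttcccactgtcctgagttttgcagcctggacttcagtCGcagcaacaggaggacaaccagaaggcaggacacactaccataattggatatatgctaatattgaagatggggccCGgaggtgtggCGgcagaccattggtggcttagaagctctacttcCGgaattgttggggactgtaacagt
The Hoxd10 window holds 20 CG dinucleotides and is 65.6% G or C. The Hoxd9 window holds 13 and is 65.2% G or C. The Rhox2h window holds 5 and is 49.2% G or C. Over all 32851 windows of the same length, the median was 6 CG dinucleotides, with quartiles of 2 and 16, and 52.4% G or C. Rhox2h therefore lay just under the median of all windows, while both Hox windows lay above it.

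CG-rich windows were found on both sides of the contrast. Windows matched for 7 of the 9 genes, 8 windows in all. Among the fallen genes, the Dlx1 window holds 22 CG dinucleotides, Msx3 18 and Isl2 16, and the windows at the 2 starts of Lhx3 hold 11 and 22. Of the members with a window, Rhox2h alone was below the median of all windows. Each window was also searched for the forkhead motif TGTTTAC and its shorter core TGTTTA, which lies within it, and for the homeodomain motif TAATTA, on both strands. None of the 8 windows holds any of these letters. Of all windows, 3.17% hold TGTTTAC, 12.0% hold TGTTTA and 4.84% hold TAATTA.

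All 4 Hox genes rose, and all were at low levels in both groups of libraries. Markers of other cell types, given below, were read in both groups too. Levels here are therefore those of whole libraries and need not be those of the carcinoma cells. Levels are given in FPKM, fragments scaled to transcript length and library size, which can be compared between genes. Across the 4 genes the group means ran from 0.205 to 2.65 FPKM in overexpression, against 0.00641 to 0.970 FPKM in wild type. The median over the 1505 genes listed as higher was 3.17 FPKM in overexpression and 1.07 FPKM in wild type, so each of the 4 Hox genes was below the median in both groups.

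Hoxc6 (Entrez 15425) and Hoxc8 (Entrez 15426), on chromosome 15, pattern the thoracic region and are among the central genes of the Hoxc cluster. Hoxc6 had 1.68, 1.68 and 2.16 FPKM in overexpression libraries 2, 3 and 4, against 0.869, 0.625 and 0.595 FPKM in wild-type libraries 1, 2 and 3. These values rest on 87, 106 and 118 fragments in overexpression and on 50, 36 and 33 in wild type. Hoxc6 was evenly raised, with libraries 2 and 3 alike and every overexpression library above every wild-type one. Its mean was 1.84 ± 0.275 FPKM in overexpression and 0.697 ± 0.150 FPKM in wild type (SD, n = 3 each), with an authors' log2 fold of 1.33 and a q of 4.03e-04. Hoxc8 had 1.84, 3.18 and 2.92 FPKM in overexpression libraries 2, 3 and 4, against 0.830, 0.919 and 1.16 FPKM in wild-type libraries 1, 2 and 3. It is the most abundant of the 4 Hox genes, and its overexpression library 2 lay well under the other two, still above all wild-type libraries. Its mean was 2.65 ± 0.710 FPKM in overexpression and 0.970 ± 0.172 FPKM in wild type (SD, n = 3 each), with an authors' log2 fold of 1.39 and a q of 5.83e-04.

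Hoxd9 (Entrez 15438) and Hoxd10 (Entrez 15430) are neighbours in the Hoxd cluster on chromosome 2, which patterns the limbs and the posterior trunk. Hoxd9 had 0.934, 0.957 and 1.93 FPKM in overexpression libraries 2, 3 and 4, against 0.459, 0.230 and 0.503 FPKM in wild-type libraries 1, 2 and 3. Overexpression library 4 was well above the other two, at 2.07 times the lowest, and the groups did not overlap. Its mean was 1.27 ± 0.570 FPKM in overexpression and 0.397 ± 0.147 FPKM in wild type (SD, n = 3 each), with an authors' log2 fold of 1.60 and a q of 0.0143. Hoxd10 had 0.149, 0.123 and 0.344 FPKM in overexpression libraries 2, 3 and 4, against 0, 0.0192 and 0 FPKM in wild-type libraries 1, 2 and 3. It was at the edge of detection in wild type, where 0 fragments allow up to 0.0577 FPKM in library 1 and up to 0.0598 FPKM in library 3, a floor of 3 counts per library.

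The authors' log2 fold of Hoxd10 was 4.79 (q = 0.0136), the largest of the 9 genes in either direction, and it rests on few fragments. They were 7, 7 and 17 in overexpression libraries 2, 3 and 4, against 0, 1 and 0 in wild-type libraries 1, 2 and 3. Summed over libraries and set per fragment sequenced, the ratio of 31 fragments in overexpression to 1 in wild type was 31.2, with a 95% counting interval from 5.20 to 1271. The interval is wide because 1 fragment stands for wild type. On the log2(FPKM + 0.1) scale, the difference of group means was 1.46 for Hoxd10, 1.44 for Hoxd9, 1.34 for Hoxc8 and 1.29 for Hoxc6. The value for Hoxd10 depends on the pseudocount, being 3.78 with 0.01 and 0.26 with 1 FPKM added.

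**Figure D1:**
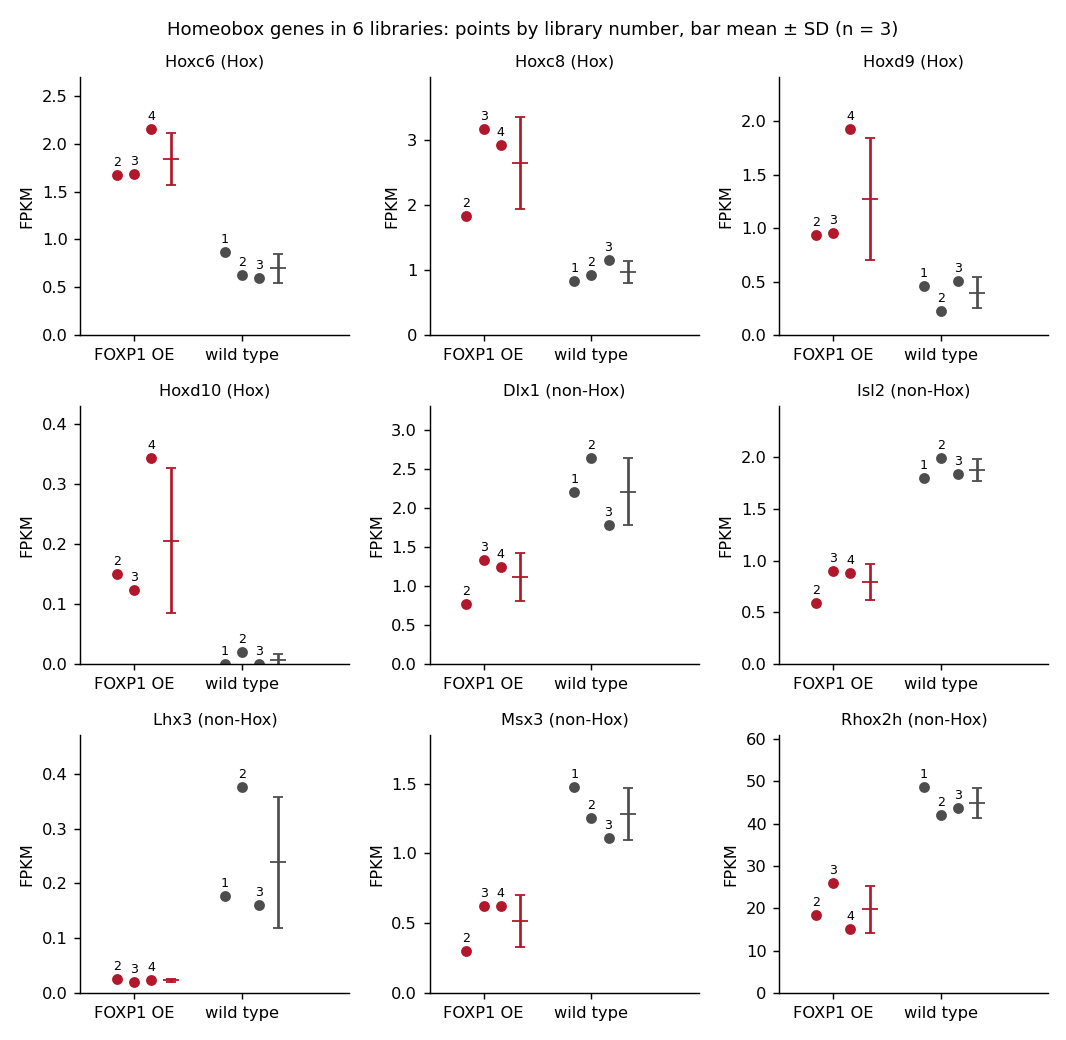
FPKM (linear axes from 0, 1 panel per gene) of the 9 homeobox genes in the FOXP1-overexpression (FOXP1 OE) and wild-type libraries. Points carry the library number, and bars give the mean ± SD of the 3 libraries. In every panel the 2 groups are apart, with the 4 Hox genes higher and the 5 non-Hox genes lower in overexpression.

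Of the 5 genes that fell, Isl2 (Entrez 104360, chromosome 9) and Lhx3 (Entrez 16871, chromosome 2) are LIM homeobox genes that work together in specifying motor neurons, and Lhx3 also in the pituitary. Isl2 had 0.589, 0.902 and 0.878 FPKM in overexpression libraries 2, 3 and 4, against 1.80, 2.00 and 1.84 FPKM in wild-type libraries 1, 2 and 3. Its wild-type libraries were the most even of any of the 9 genes, and overexpression library 2 was the lowest of all 6. Its mean was 0.789 ± 0.174 FPKM in overexpression and 1.88 ± 0.106 FPKM in wild type (SD, n = 3 each), with an authors' log2 fold of -1.31 and a q of 0.00179. Lhx3 had 0.0246, 0.0203 and 0.0233 FPKM in overexpression libraries 2, 3 and 4, against 0.177, 0.377 and 0.161 FPKM in wild-type libraries 1, 2 and 3. Each overexpression value is 1 fragment, against 8, 17 and 7 fragments in wild-type libraries 1, 2 and 3, so the spread within overexpression reflects library depth alone. The ratio of the summed fragments, 3 in overexpression to 32 in wild type, was 0.0943 per fragment sequenced, with a 95% counting interval from 0.0185 to 0.302. Lhx3 had an authors' log2 fold of -3.47, the steepest fall of the 5, and at 0.0225 the q nearest to the authors' limit among the 9 genes. Its difference on the log2(FPKM + 0.1) scale was -1.41, with -2.82 for a pseudocount of 0.01 and -0.27 for 1.

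Dlx1 (Entrez 13390, chromosome 2) and Msx3 (Entrez 17703, chromosome 7) belong to the NK-like class. Dlx1 acts in interneurons of the forebrain and Msx3 in the dorsal neural tube. Dlx1 had 0.771, 1.34 and 1.25 FPKM in overexpression libraries 2, 3 and 4, against 2.20, 2.65 and 1.79 FPKM in wild-type libraries 1, 2 and 3. The gap between the groups was narrow, from 1.34 FPKM in the highest overexpression library to 1.79 FPKM in the lowest wild-type one. Its mean was 1.12 ± 0.305 FPKM in overexpression and 2.21 ± 0.431 FPKM in wild type (SD, n = 3 each), with a q of 0.00532 and, at -1.05, the authors' log2 fold nearest to their limit of 2-fold. Msx3 had 0.303, 0.624 and 0.622 FPKM in overexpression libraries 2, 3 and 4, against 1.48, 1.25 and 1.11 FPKM in wild-type libraries 1, 2 and 3. Overexpression library 2 was again the lowest, with 12 fragments against 30 and 26 in libraries 3 and 4. The mean of Msx3 was 0.516 ± 0.185 FPKM in overexpression and 1.28 ± 0.187 FPKM in wild type (SD, n = 3 each), with an authors' log2 fold of -1.37 and a q of 0.0102.

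Rhox2h (Entrez 622301), of the X-linked reproductive homeobox cluster, was the only one of the 9 at a substantial level. It had 18.5, 25.9 and 15.0 FPKM in overexpression libraries 2, 3 and 4, against 48.8, 42.2 and 43.7 FPKM in wild-type libraries 1, 2 and 3. The wild-type libraries were close to each other and every overexpression library was below them. Its mean was 19.8 ± 5.56 FPKM in overexpression and 44.9 ± 3.46 FPKM in wild type (SD, n = 3 each), with an authors' log2 fold of -1.23 and, at 1.09e-05, the smallest q of the 9. It is also the member with the most fragments, 242, 412 and 208 in overexpression libraries 2, 3 and 4, against 709, 613 and 613 in wild-type libraries 1, 2 and 3. Its close paralogs make the assignment of reads uncertain. Of 680 stretches of 100 bases along the longest Rhox2h transcript of GENCODE M21, 84 (12.4%) also occur in another Rhox gene, most often in Rhox2a (5.44%). Only exact matches were counted, so stretches that differ by a base are left out of this share.

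Low level is what most of the 9 share. The larger of the 2 group means was under 3 FPKM in 8 of them, Rhox2h being the exception. Of all 1722 listed genes, 2.61% had a lower mean over the 6 libraries than Hoxd10 and 3.43% a lower one than Lhx3. For Hoxd9, Msx3, Hoxc6, Isl2, Dlx1 and Hoxc8 this share was between 27.9% and 44.3%, and for Rhox2h it was 91.2%. Leaving out Rhox2h, the levels of the rising and falling genes thus spanned much the same low range. Over the 217 genes listed as lower, the median was 3.41 FPKM in overexpression and 7.23 FPKM in wild type. Dlx1, Isl2, Lhx3 and Msx3 were below these medians in both groups, and Rhox2h was above them.

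**Figure D2:**
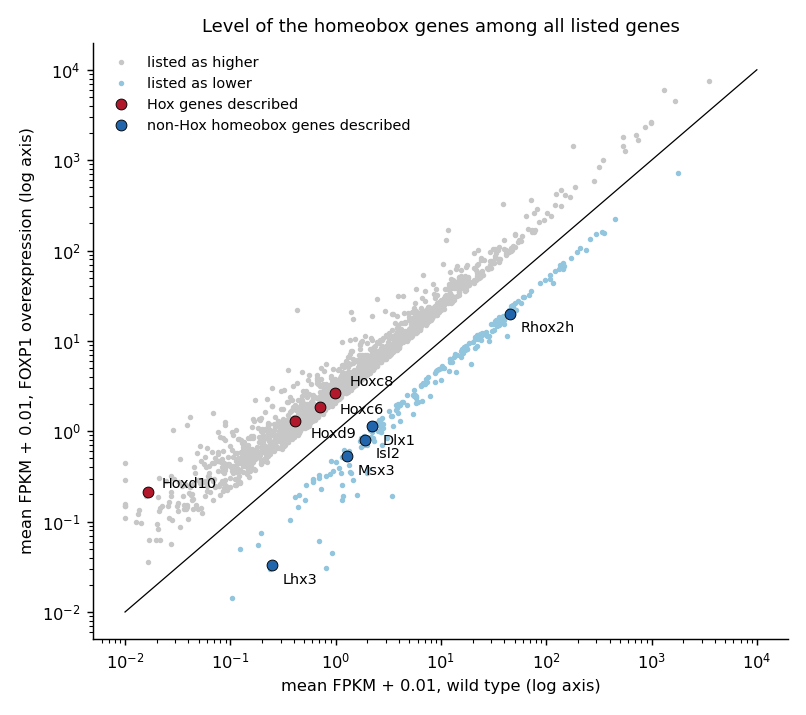
Mean FPKM + 0.01 in FOXP1 overexpression (vertical, log axis) against wild type (horizontal, log axis) for the 1722 listed genes, with equality as the line. Red points are the 4 Hox genes, blue points the 5 non-Hox homeobox genes. Rhox2h sits high at 19.8 FPKM in overexpression and 44.9 FPKM in wild type, while Hoxd10 and Lhx3 sit near the lower ends of their bands.

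Annotated neighbours also share exonic bases with 3 of the genes in GENCODE M21. Hoxd10 shares 104 exonic bases (5.73%) with Gm28309 on the same strand. Dlx1 shares 335 (6.21%) with its antisense gene Dlx1as, and Lhx3 shares 188 (6.17%) with the antisense gene Gm27196. Strand use in counting is not given, so reads of these overlaps cannot be told apart.

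In all 9 genes the 3 libraries of one group lay above the 3 of the other. The same held for 93.0% of all 1722 listed genes, 92.3% of those listed as higher and 98.2% of those listed as lower. The genes had been selected for a difference, and the authors' table lists 9.59% of the 15689 genes tested as higher and 1.38% as lower, so nothing is read from the count of 9. The sizes of the differences were near those of the other listed genes too. The median of the authors' log2 fold was 1.49 over the 4 Hox genes and 1.46 over all genes listed as higher. It was -1.31 over the 5 non-Hox genes and -1.20 over all genes listed as lower. Since 87.4% of the listed genes were higher, the median of all listed genes was shifted by 1.16 on the log2(FPKM + 0.1) scale. Relative to that shift, the median difference was 0.23 for the 4 Hox genes and -2.36 for the 5 non-Hox genes. The groups then overlapped in all 4 Hox genes and in none of the 5 others. The same share over all listed genes after this shift is not given, so nothing is read from the overlap. The shift is fixed by which genes are listed, so it brings a typical rising gene near 0 and enlarges any fall. These values are therefore not changes relative to all genes expressed.

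The split into rising Hox and falling non-Hox genes does not extend to the homeobox genes as a whole. Of 39 Hox genes, the table lists 5 (12.8%) as higher and 0 as lower, beside 9.59% and 1.38% of all genes tested. Of 223 homeobox genes of other classes, it lists 13 (5.83%) as higher and 7 (3.14%) as lower. More non-Hox homeobox genes were thus listed as higher than as lower. Of all listed genes 87.4% were higher, so nothing is read from that majority. The 34 Hox genes and 203 others that were not listed were not analysed here, and how many of them were among the genes tested is unknown. Shares of these lists and of all genes tested therefore have unlike denominators, and the difference between them was not tested.

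Within the Hox clusters, the listed genes belonged to Hoxc (3 of 9) and Hoxd (2 of 9), and 0 of 11 Hoxa and 0 of 10 Hoxb genes were listed. These counts are small beside a share of 9.59% higher and 1.38% lower over all genes tested. How many genes of each cluster were tested is unknown, so no difference between clusters is read from them. The remaining listed Hox gene was Hoxc4, of the same cluster as Hoxc6 and Hoxc8, which was chosen for mention after its values were seen. It had 17, 36 and 63 fragments in overexpression libraries 2, 3 and 4, against 13, 9 and 14 in wild-type libraries 1, 2 and 3. Its mean was 0.442 ± 0.274 FPKM in overexpression and 0.137 ± 0.0321 FPKM in wild type (SD, n = 3 each), with an authors' log2 fold of 1.61 and a q of 0.0369. Like Hoxd9 and Hoxd10 it was highest in overexpression library 4.

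The NK-like and LIM families of the fallen genes also held genes that rose, while no Rhox gene was listed as higher. Counts per class stand beside 9.59% of all genes tested listed as higher and 1.38% as lower. They are small, and nothing is read from them. In the NK-like class, 1 of 49 genes was listed as higher and 2 as lower. Msx1, a paralog of Msx3 used in craniofacial and limb mesenchyme, averaged 1.06 ± 0.324 FPKM in overexpression and 0.393 ± 0.0289 FPKM in wild type (SD, n = 3 each), opposite in direction to Msx3. In the LIM class, 1 of 12 was listed as higher and 2 as lower. Lhx8, which acts in cholinergic neurons of the forebrain and in oocytes, averaged 0.604 ± 0.496 FPKM in overexpression and 0.0948 ± 0.0433 FPKM in wild type (SD, n = 3 each), opposite to Isl2 and Lhx3. In the Rhox class, 0 of 32 genes were listed as higher and 2 as lower. Rhox5, a founding Rhox gene known from Sertoli cells, averaged 222 ± 71.5 FPKM in overexpression and 447 ± 38.8 FPKM in wild type (SD, n = 3 each), with an authors' log2 fold of -1.06. It was thus far more abundant than Rhox2h in both groups.

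In the remaining classes most listed genes were higher, as were 87.4% of all listed genes, so nothing is read from that share. Their counts, too, stand beside 9.59% of all genes tested listed as higher and 1.38% as lower. The TALE class holds partners of Hox proteins, and 3 of its 19 genes were listed as higher and 0 as lower. Meis3, one of these partners, averaged 4.11 ± 0.511 FPKM in overexpression and 1.25 ± 0.127 FPKM in wild type (SD, n = 3 each), with an authors' log2 fold of 1.65. The Iroquois genes Irx1 and Irx3, which pattern the neural tube and heart, had authors' log2 folds of 1.39 and 1.75, and the groups overlapped for Irx1. In the PRD class outside Rhox, 2 of 45 were listed as higher and 0 as lower. They were Alx4, a gene of limb and skull mesenchyme (log2 fold 3.30), and Hopx, an atypical homeodomain protein that does not bind DNA (log2 fold 1.53). Among 31 genes of the CUT, PROS, ZF, HNF and CERS classes, 6 were listed as higher and 1 as lower. The chromatin organiser Satb1 averaged 2.06 ± 0.399 FPKM in overexpression and 0.685 ± 0.238 FPKM in wild type (SD, n = 3 each). Tshz2 and Zfhx4, of the zinc-finger homeobox genes, had authors' log2 folds of 1.21 and 1.68. None of the 13 ParaHox and Hox-linked, 16 POU or 6 sine oculis homeobox genes was listed.

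**Figure D3:**
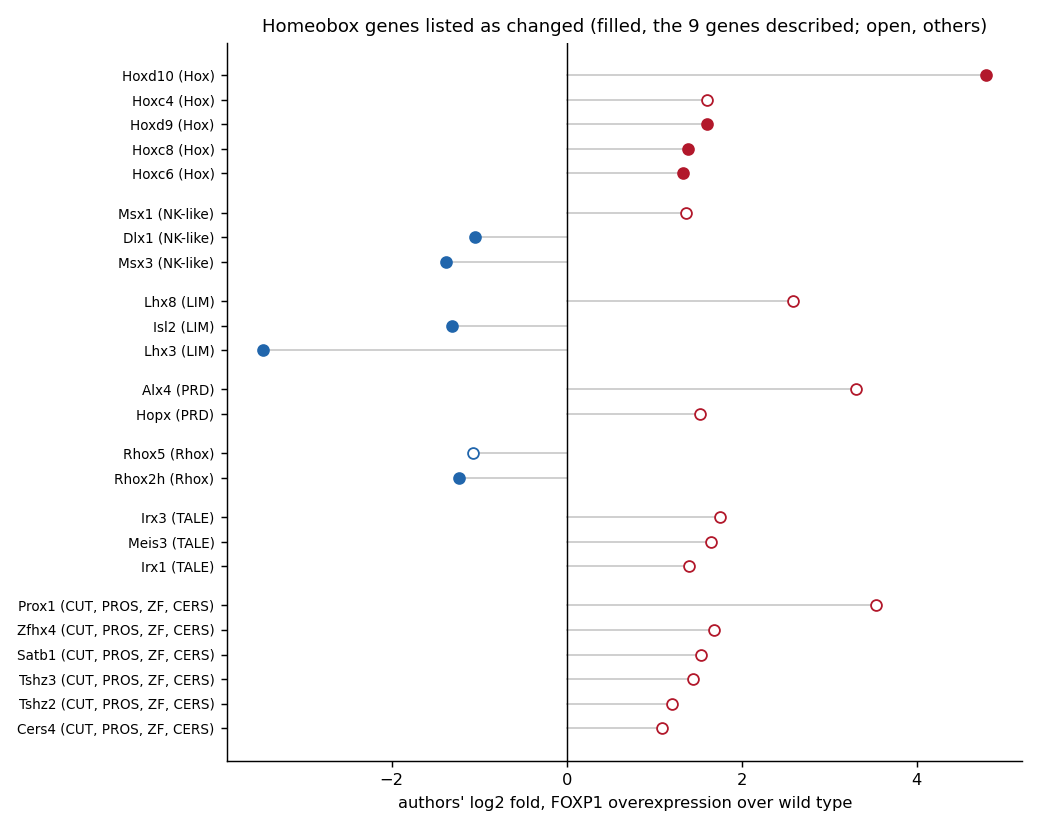
Authors' log2 fold (FOXP1 overexpression over wild type) of 24 homeobox genes listed as changed, grouped by class. Filled points are the 9 genes described in full, open points 15 others, of which 14 were higher and 1 lower. Every listed Hox gene lies right of 0, and the NK-like and LIM classes have points on both sides.

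Lists of genes that act around Hox and motor neuron factors were counted in the same way, beside 9.59% of all genes tested listed as higher and 1.38% as lower. Of 43 Polycomb and trithorax genes, whose proteins keep Hox clusters silent or active, 0 were listed as higher and 0 as lower. Of 19 genes of retinoic acid and caudal signalling, which set Hox expression in the embryo, 2 (10.5%) were listed as higher and 0 as lower. They were the receptor Rxra, with 13.4 ± 2.20 FPKM in overexpression and 5.81 ± 1.50 FPKM in wild type, and the enzyme Aldh1a1, with 5.60 ± 4.65 FPKM in overexpression and 2.12 ± 0.829 FPKM in wild type (SD, n = 3 each), whose groups overlapped. Of 30 motor neuron genes, 2 were listed as higher and 3 as lower, and Isl2 and Lhx3 are among those lower. The third was Etv4, an ETS factor of motor neuron pools that is also widely used outside neurons, with 11.5 ± 2.09 FPKM in overexpression and 21.9 ± 1.67 FPKM in wild type (SD, n = 3 each). The genes that rose were the guidance receptor Nrp1 (log2 fold 1.09) and the choline transporter Slc5a7 (log2 fold 4.93), which had 2, 25 and 9 fragments in overexpression libraries 2, 3 and 4, against 0, 1 and 0 in wild-type libraries 1, 2 and 3, so its fold rests on 1 wild-type fragment.

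The highest overexpression library differed between most Hox and most non-Hox genes, while library 2 was often the lowest in both sets. This was not tested. For 3 of the 4 Hox genes library 4 was the highest, the exception being Hoxc8 with library 3. As log2 ratios to the wild-type mean, the median of the 4 was 1.11, 1.13 and 1.77 in libraries 2, 3 and 4. Over all genes listed as higher it was 1.31, 1.16 and 1.45, and 46.4% of those genes were highest in library 4. For the 5 non-Hox genes the median was -1.44, -0.93 and -1.02 in libraries 2, 3 and 4, against -1.28, -1.04 and -1.03 over all genes listed as lower. Library 3 was the highest for 4 of these 5 genes, and for 42.9% of all genes listed as lower. Library 2 was the lowest of the overexpression libraries for Dlx1, Isl2 and Msx3, and likewise for Hoxc6, Hoxc8 and Hoxd9. Library 3 was the lowest for Hoxd10 and Lhx3, and library 4 for Rhox2h, as it was for Rhox5. The share of all listed genes lowest in library 2 is not given, so nothing is read from this order.

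**Figure D4:**
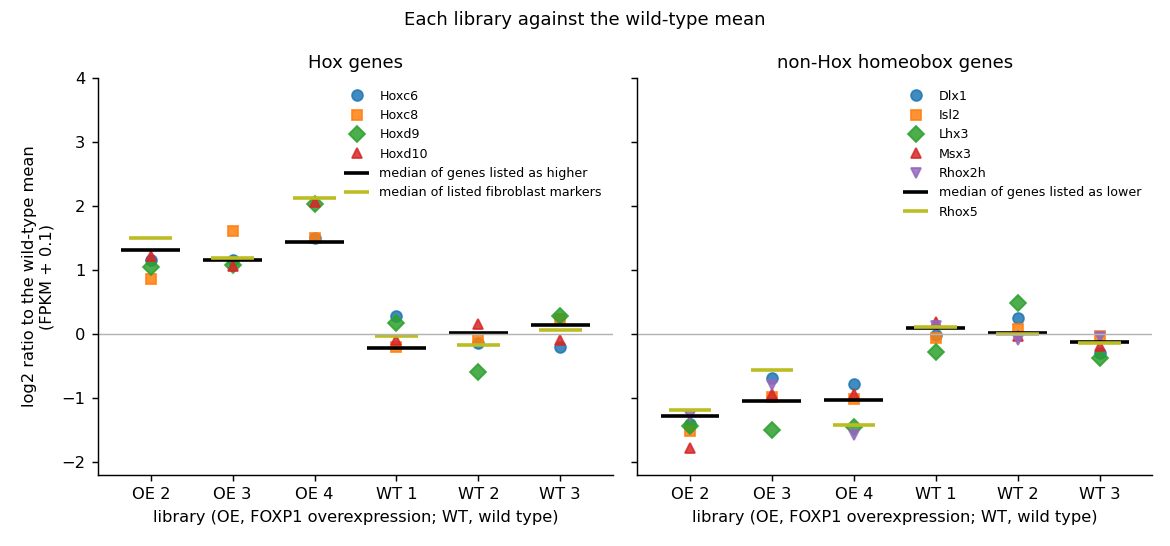
Log2 ratio of each library to the wild-type mean, on FPKM + 0.1, for the Hox genes (left) and the non-Hox genes (right), with FOXP1-overexpression (OE) libraries left of wild-type (WT) ones. Bars give the median of all genes listed in the same direction and, in olive, the median of 5 listed fibroblast markers (left) or Rhox5 (right). In overexpression library 4, Hoxd9 and Hoxd10 reach 2.03 and 2.06, Hoxc6 and Hoxc8 1.50 each, and the median of the fibroblast markers 2.13.

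Markers of other cell types were also among the listed genes, and their part in the results was not tested. Their counts stand beside 9.59% of all genes tested listed as higher and 1.38% as lower. Of 15 fibroblast markers, 5 were listed as higher (Dcn, Dpt, Fap, Lum and Thy1) and 0 as lower. Their summed level was 453, 534 and 743 FPKM in overexpression libraries 2, 3 and 4, against 168 to 193 FPKM in wild type. This sum was highest in library 4, as were Hoxc6, Hoxd9 and Hoxd10, while Hoxc8 was highest in library 3. Of all genes listed as higher, 46.4% were highest in library 4 too, so nothing is read from that match. Of 12 lymphocyte markers, 11 were listed as higher, summing to 326 to 491 FPKM in overexpression and 85.1 to 149 FPKM in wild type. No listed one was at 0 in any library, Cd3e of T cells included. Of 12 macrophage and dendritic cell markers, 3 were listed as higher (Lyz2, Cd68 and Flt3), summing to 5470 to 7585 FPKM in overexpression and 1050 to 1652 FPKM in wild type. Most of that sum is Lyz2, at 5934 ± 1229 FPKM in overexpression and 1304 ± 309 FPKM in wild type, while Cd68 averaged 311 ± 68.8 FPKM in overexpression and 138 ± 32.9 FPKM in wild type (SD, n = 3 each). Of 11 epithelial markers, Krt18 and Elf3 were listed as lower and Epcam as higher. Together they summed to 141 to 177 FPKM in overexpression and 326 to 398 FPKM in wild type. Most of this sum is Krt18, at 155 ± 21.3 FPKM in overexpression and 351 ± 37.4 FPKM in wild type (SD, n = 3 each). Epcam went the other way, at 6.01 ± 2.84 FPKM in overexpression and 1.25 ± 0.0665 FPKM in wild type (SD, n = 3 each). The sum therefore does not speak for epithelial markers as a whole. In these bulk libraries, fewer cells of a type and less RNA per cell cannot be told apart.

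For the remaining lists, 1 of 9 endothelial markers (11.1%) was listed as higher, near the 9.59% of all genes tested. It was Prox1, itself a homeobox gene, at 0.0799 to 0.339 FPKM in overexpression and 0 to 0.0389 FPKM in wild type. Of 8 Schwann cell and nerve markers, Sox10 and Mbp were listed as higher, summing to 3.98 to 4.70 FPKM in overexpression and 0.849 to 2.12 FPKM in wild type. No marker of skeletal muscle (9 markers) or of germ cells and placenta (9 markers) was listed. Markers that were not listed were not analysed here.

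Genes most like the most abundant Hox and non-Hox gene were sought by their deviations from the group means over the 6 libraries, among genes at least as abundant. For Hoxc8 the 3 most alike of 959 genes were Papss2, an enzyme of sulfate activation (r = 0.999), the mast cell protease gene Mcpt4 (r = 0.998) and the ubiquitin-conjugating enzyme gene Ube2d1 (r = 0.967). For Rhox2h the 3 most alike of 151 genes were Lgals7, a galectin of stratified epithelium (r = 0.977), Rhox5 (r = 0.970) and Cyp2e1, a cytochrome P450 gene (r = 0.933). Rhox5 and Rhox2h had the same order of overexpression libraries but not of wild-type ones, where Rhox2h had 48.8, 42.2 and 43.7 FPKM and Rhox5 485, 449 and 408 FPKM in libraries 1, 2 and 3. Cyp2e1 rose, with an authors' log2 fold of 3.50. These values are the highest of many, share the same 6 libraries and their depth, and are given as a description.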

How the data were processed

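Poly(A)-selected RNA of U14 cells was sequenced as paired ends in 6 libraries, 3 per group. Per the submitters' processing notes, Trimmomatic, HISAT2 and DESeq were used, with no versions, and the build named is the human hg19, although the organism, symbols and Entrez identifiers are mouse. The counter, annotation and strandedness were not given in the sources used here. Of 15689 genes tested, as read from the ratio of q to p, the deposited table holds only the 1722 past a fold of 2 at a q-value under 0.05.

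The deposited expression values were taken as FPKM, fragments scaled to transcript length and library size, since all 10332 of them gave whole fragment counts, within 0.01, from the values and the mean normalised signal of each group that the authors deposited. That rebuilding was tested on simulated data. Per the file headers, the fold ratio, its log2 and the p-value and q-value of each gene are the authors' own, taken as FOXP1 overexpression over wild type. Library totals were 16824351, 20410060 and 17744093 fragments in overexpression libraries 2, 3 and 4, and 18656771, 18668395 and 17994311 in wild-type libraries 1, 2 and 3.

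Differences computed here are those of the group means of log2(FPKM + 0.1), which understates the change of genes with low values. No test was run on the genes described, because the authors' q and fold had chosen them. Intervals are 95% exact intervals and cover counting error only. The genes described, the homeobox classes and the other lists were chosen with earlier results of these data known. All 9 genes are named, with each listed member of a list where 4 or fewer are listed, and otherwise the 4 with the smallest q. Hoxc4, the marker genes and those shown as further open points in the plot of folds were named after their values were seen. Results of 2 single genes of these lists are not reported here, though the counts and sums of their lists include them. Genes most like a described gene were ranked by Pearson's r of deviations from the group means. Separate cultures are not stated in the labels, so spreads between libraries may be technical. The overexpression column numbered 4 matches no sample title and was taken as an overexpression library without a number. Alternatives were pseudocounts of 1 and 0.01, a filter of 1 FPKM, centring each library on the median of the listed genes, leaving out each library, pairing by library number and stricter limits on q and fold. Python 3.11.15, numpy 2.4.6, pandas 2.3.3, scipy 1.17.1 and matplotlib 3.10.9 were used.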

Additional observations from a re-analysis of the deposited data

How the results depend on the processing

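With a pseudocount of 1 in place of 0.1, the number of Hox genes past a 2-fold difference was 0 instead of 4, and their median difference 0.71 instead of 1.39 (log2). The number of non-Hox genes past it was 1 instead of 4, and their median -0.60 instead of -1.20. Low values are compressed by construction. Centring each library on the median of the listed genes, a shift of 1.16 (0.81 with a pseudocount of 1), left a median of 0.23 for the Hox genes, 0 of 4 past 2-fold and 0 of 4 with groups apart, and a median of -2.36 for the non-Hox genes. Since most listed genes are higher, that shift is fixed by which genes are listed, and nothing is read from the overlap it leaves. All 9 differences kept their sign after centring. Under the other pseudocounts, pairing, each left-out library and the filter no sign could change, because the groups of all 9 genes were apart. Nothing is read from the kept signs. A pseudocount of 0.01 gave medians of 1.53 for the Hox and -1.26 for the non-Hox genes, and moved Hoxd10 (3.78) and Lhx3 (-2.82). Leaving out each library gave 2 to 5 non-Hox genes past 2-fold, the 2 without overexpression library 2. It gave 4 Hox genes each time. The filter of 1 FPKM removed Hoxd10 and Lhx3. Of the homeobox genes, 10 were higher and 5 lower at a q under 0.01, and 4 higher and 1 lower at a fold of at least 4, against 18 and 7. The shares of all listed genes past these stricter limits, or past 2-fold under each alternative, are not given. Nothing is therefore read from these counts. Whether libraries 2 and 3 share more than a number across groups is unknown. Their deviations over the listed genes correlated at 0.025 and 0.082. Pairs with unlike numbers ran from -0.106 to 0.106, so these values cannot decide it. Pairing by that number (the replicate block) gave medians of 1.19 for the Hox and -1.24 for the non-Hox genes. Depth limits Hoxd10 and Lhx3, with 1 and 3 fragments in the lower group.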
